A study of Mus musculus with 2 samples.

Results

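The 9 microRNA genes described here form 2 clusters, out of 1973 microRNA genes in the count tables. Mir106b, Mir93 and Mir25 make up the miR-106b-25 cluster, and Mir106a, Mir18b, Mir20b, Mir19b-2, Mir92-2 and Mir363 make up the miR-106a-363 cluster. They were chosen by name and position, not by level, though earlier results of these data were known at that time. All 9 were found by their Ensembl identifiers. The samples were mouse embryo livers (strain B6NCrl, embryonic day 14.5), with no treatment named in the labels, in 1 group of 2 small RNA libraries. The labels call each sample a single liver, yet give the sex as pooled male and female and name the same donor for both. How far the replicates are separate animals is therefore uncertain, and the spread between them may be partly technical. The libraries held 6395680 and 8068090 reads, of which 2353946 (replicate 1) and 3132763 (replicate 2) fell on annotated microRNA genes in the sense direction. CPM is the depth-scaled level relative to these sense totals, and ± stands for the SD between the livers (n = 2). Intervals for 1 library are 95% exact intervals and cover only the counting error of reads. PCR copies are not independent molecules, so these intervals may be too narrow for molecules. MicroRNAs typical of liver cells were present, with all 4 hepatocyte markers detected at a summed level of 103929 and 117345 CPM, as were all 3 red cell markers at 50018 and 40030.5 CPM. Because the tissue was whole, fewer cells of a type and less RNA per cell cannot be told apart.

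MicroRNAs are short RNAs cut from hairpins in longer transcripts, and they guide repressor complexes to messenger RNAs that pair mainly with the seed, bases 2 to 8 of the mature strand. The miR-106b-25 and miR-106a-363 clusters are paralogs of miR-17-92, a polycistron known for its role in cell growth and blood cancers. Members of these clusters fall into 4 seed families named after miR-17, miR-18, miR-19 and miR-25/92. The miR-17 family is known to restrain the cell cycle inhibitor p21 and several E2F factors. In mice, loss of miR-17-92 is lethal around birth, whereas loss of either of the other clusters alone is tolerated.

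Both clusters carry the miR-17 and miR-25/92 seeds, and the miR-106a-363 cluster alone of the pair also carries the miR-18 and miR-19 seeds. The strands usually taken as the guide are shown here, from RefSeq on GRCm38.p6, to show which microRNAs share a seed and how little some of them differ. Capitals mark the seed. The counts are per hairpin and do not separate its arms. The miR-17 seed was carried by 4 members and by Mir17 and Mir20a of miR-17-92:
miR-106b-5p: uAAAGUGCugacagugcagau
miR-93-5p: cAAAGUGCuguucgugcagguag
miR-106a-5p: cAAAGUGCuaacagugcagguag
miR-20b-5p: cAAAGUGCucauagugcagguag
miR-17-5p: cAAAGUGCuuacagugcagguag
miR-20a-5p: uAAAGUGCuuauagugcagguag
The miR-25/92 seed was carried by 3 members:
miR-25-3p: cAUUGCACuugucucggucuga
miR-92a-3p: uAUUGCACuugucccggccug
miR-363-3p: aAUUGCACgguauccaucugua
The miR-18 and miR-19 seeds were each carried by 1 member, shown with the relative in miR-17-92:
miR-18b-5p: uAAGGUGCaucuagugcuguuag
miR-18a-5p: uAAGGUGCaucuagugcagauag
miR-19b-3p: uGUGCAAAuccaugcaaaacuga
miR-19a-3p: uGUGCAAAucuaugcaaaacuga

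Outside the seed the members varied in how far they had parted from miR-17-92. Counted from 1 at the 5′ end of the miR-17-92 strand, miR-106a-5p differed from miR-17-5p at 1 position only (U10A). Between miR-20a-5p and miR-20b-5p there were 2 differences (U1C and U10C), and between miR-18a-5p and miR-18b-5p there were also 2 (A18U and A20U). In the other cluster miR-106b-5p differed from miR-17-5p at 3 of the 21 bases compared, miR-93-5p at 4 of 23 and miR-25-3p from miR-92a-3p at 3 of 21. The strand farthest from its relative was miR-363-3p, which differed from miR-92a-3p at 11 of 21 bases, none of them in the seed. Mir19b-2 and Mir92-2 gave the very same mature strand as Mir19b-1 and Mir92-1 of miR-17-92.

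That identity bears on the counts, because reads that mapped to more than 1 place (34.0% and 33.1% of all reads) were not counted at any gene. The shared hairpins are shown with their longest common stretch in capitals:
Mir92-1: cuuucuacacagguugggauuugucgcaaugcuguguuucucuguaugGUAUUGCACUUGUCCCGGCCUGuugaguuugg
Mir92-2: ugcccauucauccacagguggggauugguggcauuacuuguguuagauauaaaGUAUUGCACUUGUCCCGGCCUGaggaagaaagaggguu
Mir19b-1: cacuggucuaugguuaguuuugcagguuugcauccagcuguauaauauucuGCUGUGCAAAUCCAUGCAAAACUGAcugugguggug
Mir19b-2: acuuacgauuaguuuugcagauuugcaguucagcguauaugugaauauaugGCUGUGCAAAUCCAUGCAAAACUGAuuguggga
The Mir92 hairpins had 22 bases in common and the Mir19b hairpins 25, in libraries of RNA under 30 nucleotides. A read that lies within these stretches cannot be placed at 1 hairpin, so the counts of Mir92-2 and Mir19b-2 are lower limits. For the other 7 members the longest stretch shared with any other hairpin was 12 to 17 bases, which is shorter than their mature strands of 21 to 23 bases.

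The clusters lie on different chromosomes, and only miR-106b-25 lies within an annotated host gene (GENCODE M21 on GRCm38, the assembly also called mm10). The miR-106b-25 hairpins lie on chromosome 5, minus strand, in the order Mir106b (138165737 to 138165818), Mir93 (138165523 to 138165610) and Mir25 (138165321 to 138165404), and span 498 bases. All 3 lie in intron 13 of the 15-exon transcript of Mcm7, which encodes a subunit of the helicase that opens DNA for replication. A shorter transcript, annotated as a retained intron, covers Mir93 and Mir25 but does not reach Mir106b. The miR-106a-363 hairpins lie on the X chromosome, minus strand, and span 875 bases. Their order is Mir106a (52742503 to 52742567), Mir18b (52742331 to 52742413), Mir20b (52742113 to 52742192), Mir19b-2 (52741983 to 52742066), Mir92-2 (52741838 to 52741928) and Mir363 (52741693 to 52741767). No annotated gene spans this cluster on its strand. The noncoding transcript Kis2 lies upstream and overlaps Mir106a by at most 5 bases.

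**Figure D1:**
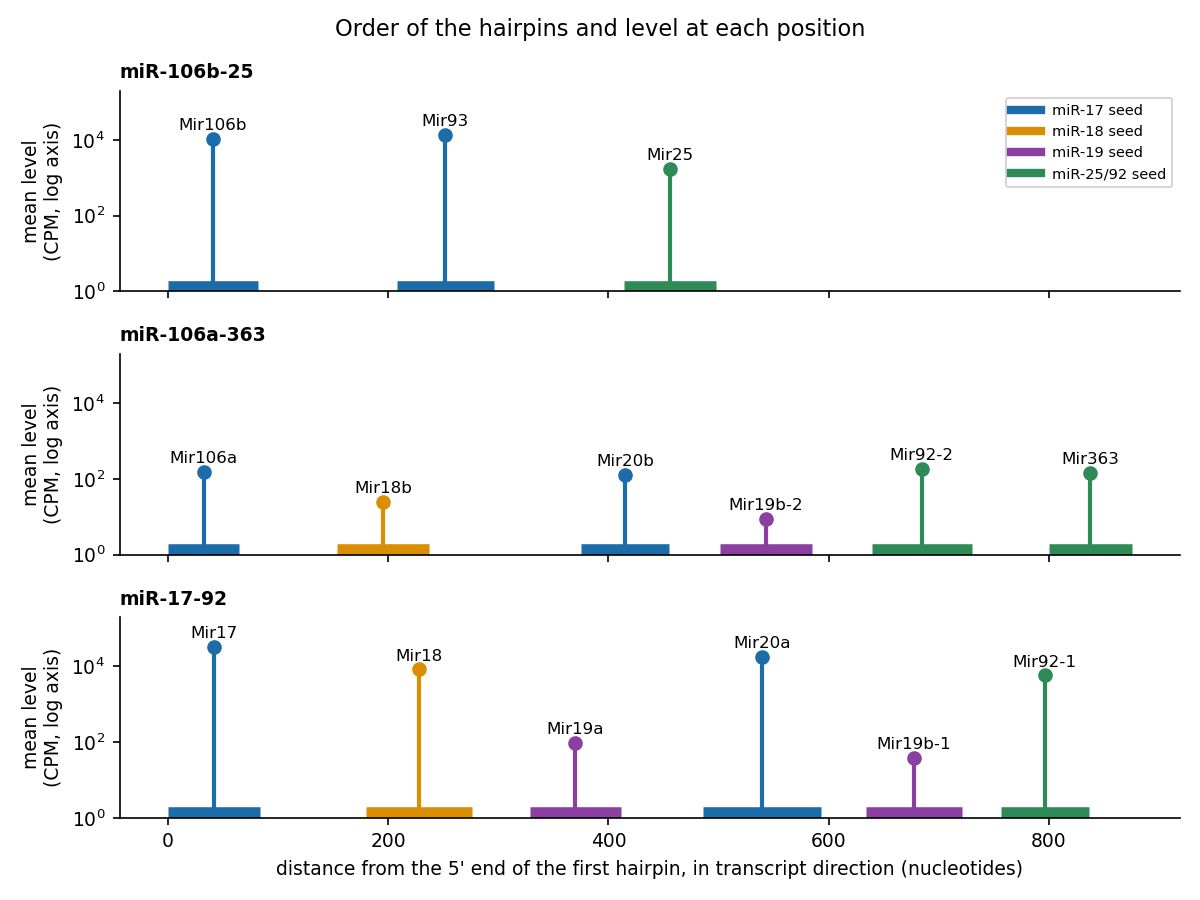
Hairpins of the 3 clusters drawn to scale as bars along the transcript (distance from the first hairpin's 5′ end in nucleotides), with the mean CPM of the livers as a stem on a log axis and the seed family as colour. Mir106b and Mir93 reach 10728 and 13561 CPM on average. The highest hairpin of the miR-106a-363 cluster as counted, Mir92-2, reaches 183 CPM, which is a lower limit.

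The miR-106b-25 cluster was abundant in both livers, and its miR-17 seed members made up most of it. Mir93 (ENSMUSG00000065527), of the miR-17 seed, had 13435 and 13686 CPM in replicates 1 and 2 (13561 ± 178). Mir106b (ENSMUSG00000065514), of the same seed, had 11120.1 and 10336 CPM (10728 ± 554). Mir93 was thus above Mir106b in both livers, and neither replicate of one overlapped the other. Mir25 (ENSMUSG00000065394), which carries the miR-25/92 seed, had 1721 and 1768 CPM (1745 ± 33.3). By mean level these genes ranked 24, 28 and 74 among the 1973 in the table. The whole cluster held 26276 CPM in replicate 1 and 25791 CPM in replicate 2, or 2.63% and 2.58% of the counts. Mir122, the main microRNA of liver cells and the highest gene in the tables, had 7.25 times the counts of Mir93 in replicate 1 and 8.06 times in replicate 2.

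Within the miR-106b-25 cluster the proportions were similar but not equal between the livers. By Clopper-Pearson 95% intervals, Mir93 made up 51.1% of the cluster (50.7 to 51.5) in the first liver and 53.1% (52.7 to 53.4) in the second. Mir106b made up 42.3% (41.9 to 42.7) and 40.1% (39.7 to 40.4), and Mir25 made up 6.55% (6.36 to 6.75) and 6.86% (6.68 to 7.03). The ratio of Mir93 to Mir106b counts, which needs no scaling of the libraries, was 1.21 in replicate 1 (1.19 to 1.23) and 1.32 in replicate 2 (1.31 to 1.34). The ratio of Mir93 to Mir25 was 7.80 (7.55 to 8.07) and 7.74 (7.53 to 7.96), with intervals that overlapped. The ratio of Mir106b to Mir25 was 6.46 (6.25 to 6.68) and 5.84 (5.68 to 6.01). Both ratios that involve Mir106b thus differed between the libraries by more than counting error.

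The miR-106a-363 cluster was present in both livers at a much lower counted level, and all 6 members passed the minimum of 10 counts in each library. Of the miR-17 seed, Mir106a (ENSMUSG00000065456) had 139 and 165 CPM (152 ± 18.7), from 327 and 518 counts. Mir20b (ENSMUSG00000076041), of the same seed, had 119 and 138 CPM (129 ± 13.1). Both had the higher value in replicate 2, though for Mir20b the interval of the ratio between the livers included 1 (0.992 to 1.35). The ratio of Mir106a to Mir20b was 1.16 in replicate 1 (0.989 to 1.37) and 1.20 in replicate 2 (1.05 to 1.37). Mir106a was thus above Mir20b by more than counting error in replicate 2 only. Of the miR-25/92 seed, Mir92-2 (ENSMUSG00000065613) had 159 and 207 CPM (183 ± 34.1), a lower limit for the reason given above. Mir363 (ENSMUSG00000070106) had 156 and 135 CPM (146 ± 15.3). These last genes lie side by side, were level in replicate 1 and stood apart in replicate 2. Mir18b (ENSMUSG00000077111), of the miR-18 seed, had 25.5 and 23.6 CPM (24.6 ± 1.32), from 60 and 74 counts. Mir19b-2 (ENSMUSG00000065473), of the miR-19 seed, had 9.77 CPM (6.19 to 14.7) and 7.66 CPM (4.91 to 11.4), from 23 and 24 counts. The last level is again a lower limit. The whole cluster held 609 and 677 CPM as counted, or 0.0609% and 0.0677% of the counts.

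**Figure D2:**
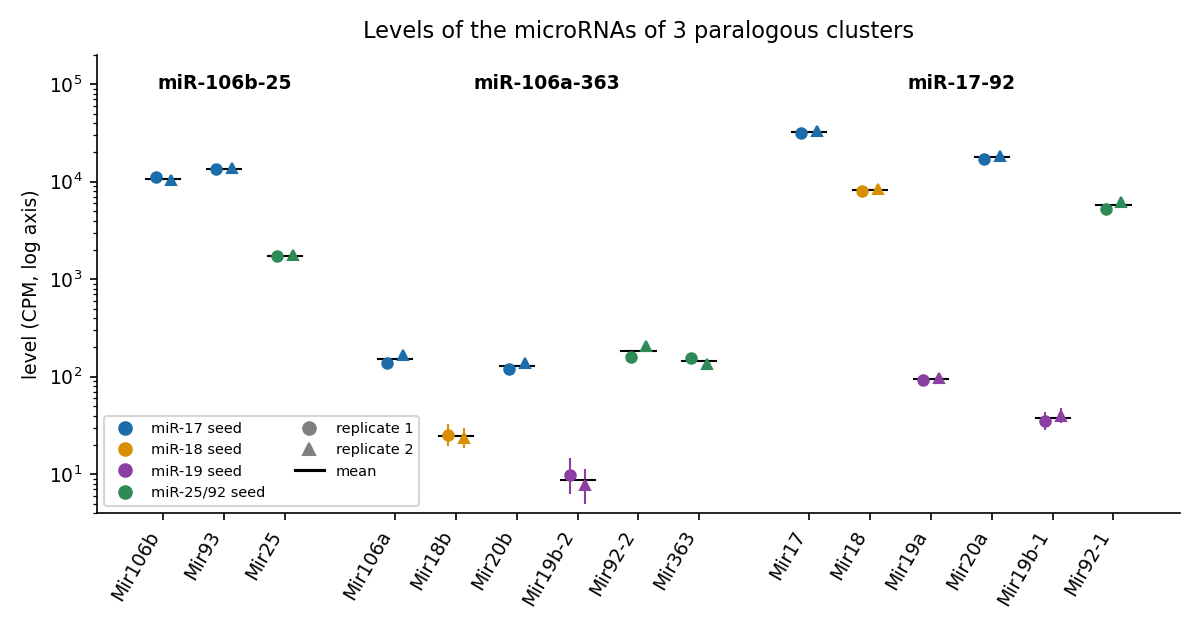
Level of each microRNA of the 3 clusters (CPM, log axis), with replicate 1 as circles, replicate 2 as triangles, vertical lines for 95% exact Poisson intervals and a bar at the mean; colours give the seed family. The 3 genes of the miR-106b-25 cluster lie between 1721 and 13686 CPM, above every member of the miR-106a-363 cluster as counted. The levels of Mir92-2 and Mir19b-2 are lower limits.

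In order of mean level the 9 genes ran Mir93, Mir106b, Mir25, Mir92-2, Mir106a, Mir363, Mir20b, Mir18b and Mir19b-2. The replicate ranges of neighbours were apart at 5 of the 8 steps. They overlapped between Mir92-2 and Mir106a, between Mir106a and Mir363, and between Mir363 and Mir20b. Among pairs of these 4 X-linked genes that were not neighbours in the order, the replicate ranges were also apart. Mir106a lay above Mir20b, and Mir92-2 above both Mir363 and Mir20b, in both livers. In replicate 1, however, the counting interval of the ratio included 1 for Mir106a over Mir20b (1.16, 0.989 to 1.37). It also included 1 for Mir92-2 over Mir363 (1.02, 0.880 to 1.18), so these orders were within counting error there. The step down from Mir25 to Mir92-2 was 9.51-fold by the means, and that from Mir20b to Mir18b was 5.24-fold. The levels of Mir92-2 and Mir19b-2 are lower limits. Their places in this order, and the step from Mir25 to Mir92-2, therefore hold only for the reads counted. CPM was not divided by hairpin length, since a count is 1 short read placed in the hairpin, on either arm. The mature strands are of nearly equal length. Differences in how well each strand is captured in a library were not tested.

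Set against each other, the clusters differed far more in the miR-17 seed than in the miR-25/92 seed. The miR-106b-25 cluster had 43.1 times the counts of the miR-106a-363 cluster in replicate 1 (95% exact interval 40.9 to 45.5) and 38.1 times in replicate 2 (36.5 to 39.8), a mean of 40.6 ± 3.55. For the miR-17 seed, Mir106b and Mir93 together had 95.1 times the counts of Mir106a and Mir20b in replicate 1 (87.8 to 103) and 79.2 times in replicate 2 (74.3 to 84.5). For the miR-25/92 seed, Mir25 had 5.45 times the counts of Mir92-2 and Mir363 together in replicate 1 (5.04 to 5.91) and 5.17 times in replicate 2 (4.84 to 5.52). Because Mir92-2 and Mir19b-2 are undercounted, the cluster ratio and the miR-25/92 ratio are upper limits, and their intervals cover counting error alone. With Mir92-2 and Mir19b-2 left out, the ratio of the clusters was 59.7 and 55.9, and that of Mir25 to Mir363 alone was 11.0 and 13.1. Leaving them out takes counts from the miR-106a-363 cluster only, so it raises these ratios and does not correct the undercount. The larger gap for the miR-17 seed was seen in both livers and with or without these genes.

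The composition of the clusters differed accordingly. The miR-17 seed made up 93.4% and 93.1% of the miR-106b-25 counts in replicates 1 and 2, but 42.4% (39.8 to 45.0) and 44.8% (42.7 to 47.0) of the miR-106a-363 counts. The miR-25/92 seed made up 51.8% (49.2 to 54.4) and 50.6% (48.4 to 52.7) of the miR-106a-363 counts, even though Mir92-2 is undercounted. Mir18b added 4.18% and 3.49%, and Mir19b-2 added 1.60% and 1.13%.

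The miR-106a-363 cluster repeats most of the seed order of miR-17-92, without a counterpart of Mir19a and with Mir363 added at the end, so 5 members could be set beside a counterpart. Mir106a had 0.441% of the Mir17 count in replicate 1 and 0.497% in replicate 2. Mir20b had 0.690% and 0.743% of the Mir20a count, and Mir18b had 0.316% and 0.281% of the Mir18 count. These 3 pairs can be told apart by sequence, and in each the X-linked gene was below 1% of its counterpart in both livers. A miR-17-5p read that carries the change U10A is identical to miR-106a-5p, and the part of such reads in the Mir106a count was not tested. Mir92-2 had 3.03% and 3.36% of the Mir92-1 count, and Mir19b-2 had 27.7% and 19.2% of the Mir19b-1 count. In these pairs, though, reads within the common stretch are counted at neither gene. The counted reads reach past that stretch or lie elsewhere in the hairpin, such as on the other arm, and these kinds were not separated. The ratio of Mir19b-1 to Mir19b-2 was 3.61 (2.25 to 6.00) and 5.21 (3.35 to 8.43), so its counting error was wide. Mir19a, whose mature strand is made by no other hairpin and differs from miR-19b-3p at 1 position (U11C, the miR-19a-3p base first), was also low for its cluster, with 91.8 and 96.1 CPM beside 31476 and 33264 CPM of Mir17.

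**Figure D3:**
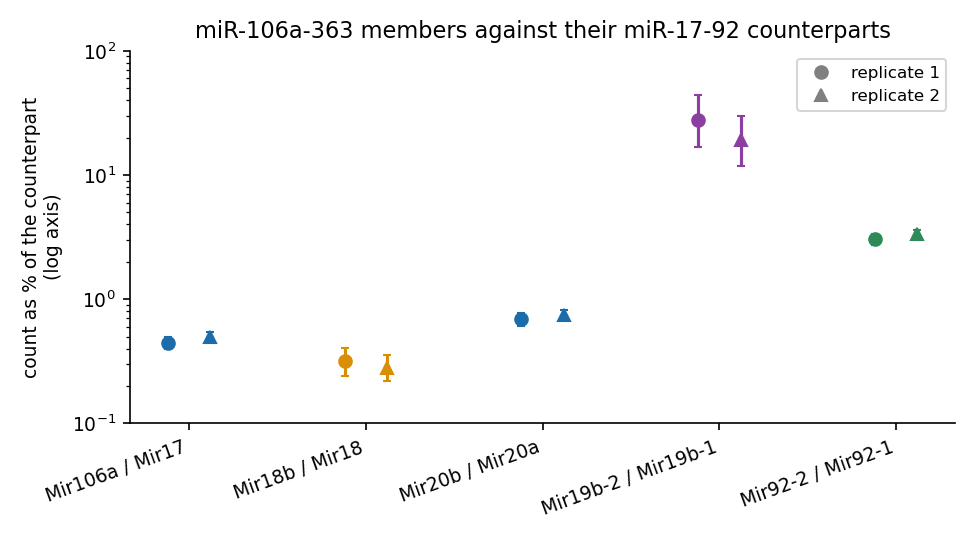
Count of each miR-106a-363 member as a percent of its miR-17-92 counterpart (log axis), for replicate 1 (circles) and replicate 2 (triangles) with 95% exact intervals and the seed family as colour. Mir106a, Mir18b and Mir20b lie below 1% in both livers, and the pairs with a shared mature strand, Mir19b and Mir92, lie higher.

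By locus and as counted, miR-17-92 gave most of the counts of all 4 seed families. By the same counts miR-106b-25 came next in both families it belongs to, and miR-106a-363 gave little. Of the miR-17 seed (73599 and 76159 CPM over 6 genes), miR-106b-25 gave 33.4% (33.1 to 33.6) in replicate 1 and 31.5% (31.4 to 31.7) in replicate 2, miR-106a-363 gave 0.351% and 0.398%, and miR-17-92 gave 66.3% and 68.1%. The only other annotated hairpin with this seed, Mir6383, had 0 counts in both libraries, which allows up to 3 counts or 1.27 and 0.958 CPM. Of the miR-25/92 seed (7801 and 8684 CPM over 7 genes), Mir25 gave 22.1% (21.5 to 22.7) and 20.4% (19.9 to 20.8), Mir92-2 and Mir363 gave 4.05% (3.77 to 4.34) and 3.94% (3.71 to 4.18), and Mir92-1 gave 67.5% and 71.2%. Since Mir92-1 and Mir92-2 share a mature strand and are both undercounted, the share of Mir25 is an upper limit, and its interval covers counting error alone. Reads of the shared strand cannot be assigned to a locus. The shares of miR-106a-363 and miR-17-92, and the order of the loci in this family, therefore hold only for the reads counted. The shares of the miR-19 seed carry the same uncertainty, because Mir19b-1 and Mir19b-2 are undercounted as well. Mir18b gave 0.315% and 0.280% of the miR-18 seed. Mir19b-2 gave 7.14% (4.58 to 10.5) and 5.33% (3.45 to 7.83) of the miR-19 seed, on 322 and 450 counts in all. Over the 3 clusters together, as counted, miR-106b-25 held 29.5% and 27.7% of the counts and miR-106a-363 held 0.683% and 0.727%.

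**Figure D4:**
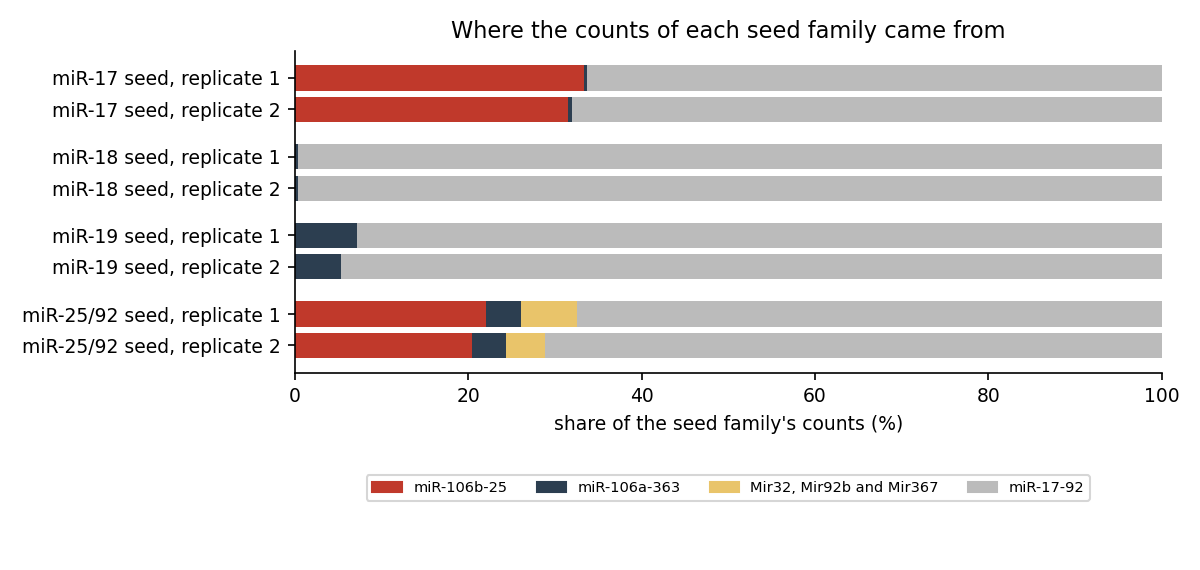
Share of each seed family's counts by locus (%), 1 bar per replicate, with miR-106b-25 in red, miR-106a-363 in dark blue, Mir32, Mir92b and Mir367 in yellow and miR-17-92 in grey. The red part is 33.4% and 31.5% of the miR-17 seed and 22.1% and 20.4% of the miR-25/92 seed (an upper limit, as Mir92-1 and Mir92-2 are undercounted). As counted, the dark blue part is at most 7.14%, in the miR-19 seed.

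A further 3 relatives of the miR-25/92 seed lie at other places in the genome and were listed beside the clusters. Mir32, a single hairpin on chromosome 4, had 424 and 379 CPM and stood 2.71 and 2.82 times above Mir363. Mir92b on chromosome 3 had 75.6 and 10.9 CPM in replicates 1 and 2, a 6.97-fold difference (4.81 to 10.4, adjusted p = 9.62e-34 by the exact binomial test described next). The neural marker list was also higher in replicate 1, at 258 against 23.3 CPM, but most of this was Mir137 (242 and 22.3 CPM). Mir137 was the only 1 of 6 measured markers with at least 10 counts in both libraries. Mir9-3 had 38 and 2 counts, and Mir124a-2, Mir124a-3 and Mir9-2 had 0. Mir124a-1 was not at 0 in both libraries but did not reach 10 counts in both. The part of this list in the Mir92b difference was not tested. Mir367, a microRNA of embryonic stem cells, had 1 count in replicate 1 and 0 in replicate 2, which is within the 3 counts that a count of 0 allows.

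The livers were compared gene by gene with a two-sided exact binomial test of the counts, adjusted by Benjamini-Hochberg over the 332 genes that reached 10 counts in both libraries. This test compares these libraries, not conditions. At an adjusted p under 0.05 it called 41.9% of all genes tested, with 18.4% toward replicate 1 and 23.5% toward replicate 2. It called 4 of the 9 members, 1 of them toward replicate 1 and 3 toward replicate 2. The members' share was close to that of all genes, so the count says nothing particular about them. Their median log2 ratio of replicate 2 over replicate 1 (0.5 added to each count) was 0.03, the same as over all genes tested (0.03), and the median size regardless of direction was 0.21 against 0.16. In the miR-17-92 cluster 4 of 6 genes were called, all higher in replicate 2, with a median of 0.09.

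Among the members called, the differences were small and only Mir106b and Mir92-2 passed under every scaling and filter tried. Mir106b, 11120.1 against 10336 CPM, was 1.08-fold higher in replicate 1 (1.06 to 1.09, adjusted p = 1.46e-17 by the exact binomial test, 1.34e-11 at the highest among the alternatives). By the reads that could be placed at 1 hairpin, Mir92-2 (159 against 207 CPM) was 1.30-fold higher in replicate 2 (1.15 to 1.48). Its adjusted p was 1.59e-04 by the same exact test and at most 5.07e-04 among the alternatives. Mir106a was 1.19-fold higher in replicate 2 (1.03 to 1.37, exact test, adjusted p = 0.0339), and under the alternatives its adjusted p ranged from 0.0188 to 0.0652. Mir93 was 1.02-fold higher in replicate 2 (1.00 to 1.03, exact test, adjusted p = 0.0311), with a range of 3.36e-05 to 0.899. The calls of Mir106a and Mir93 were lost by TMM, by DESeq2 size factors and with no filter, that of Mir93 also with counts regardless of strand, and that of Mir106a also with a minimum of 1 count. Over the same libraries the summed hepatocyte markers were higher in replicate 2 and the summed red cell markers in replicate 1, by the levels given at the start. Of the red cell markers, Mir451a and Mir144 were higher in replicate 1. Mir486 went the other way, with 405 CPM in replicate 1 and 516 CPM in replicate 2. The part of these markers in the members' differences was not tested.

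The other 5 members did not pass. Mir363, with 156 against 135 CPM, had a ratio of replicate 1 over replicate 2 of 1.16 (1.01 to 1.34, exact test, adjusted p = 0.0795). Its neighbour Mir92-2 had 1.02 times the counts of Mir363 in replicate 1 (0.880 to 1.18) and 1.54 times in replicate 2 (1.36 to 1.75). The counts of these hairpins of 1 cluster therefore differed in proportion between the libraries by more than counting error. For Mir92-2 only reads that could be placed at 1 hairpin are counted. Whether the share of its reads so placed was equal in the livers was not tested. Mir20b had a ratio of replicate 2 over replicate 1 of 1.16 (0.992 to 1.35), Mir25 of 1.03 (0.986 to 1.07), Mir18b of 0.927 (0.650 to 1.33) and Mir19b-2 of 0.784 (0.424 to 1.45). Mir18b and Mir19b-2, with the fewest counts, had the widest intervals, and differences within these could not be detected. As wholes, the miR-106b-25 cluster had a ratio of 0.982 (0.971 to 0.992), the miR-106a-363 cluster of 1.11 (1.04 to 1.19) and miR-17-92 of 1.07 (1.06 to 1.08). These ratios and intervals hold for scaling by the library totals, and other scalings were not tried for them. With the highest gene left out of the totals, the miR-106b-25 level was closer between the livers (29050.4 ± 84.5 CPM, against 26034 ± 343 CPM).

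**Figure D5:**
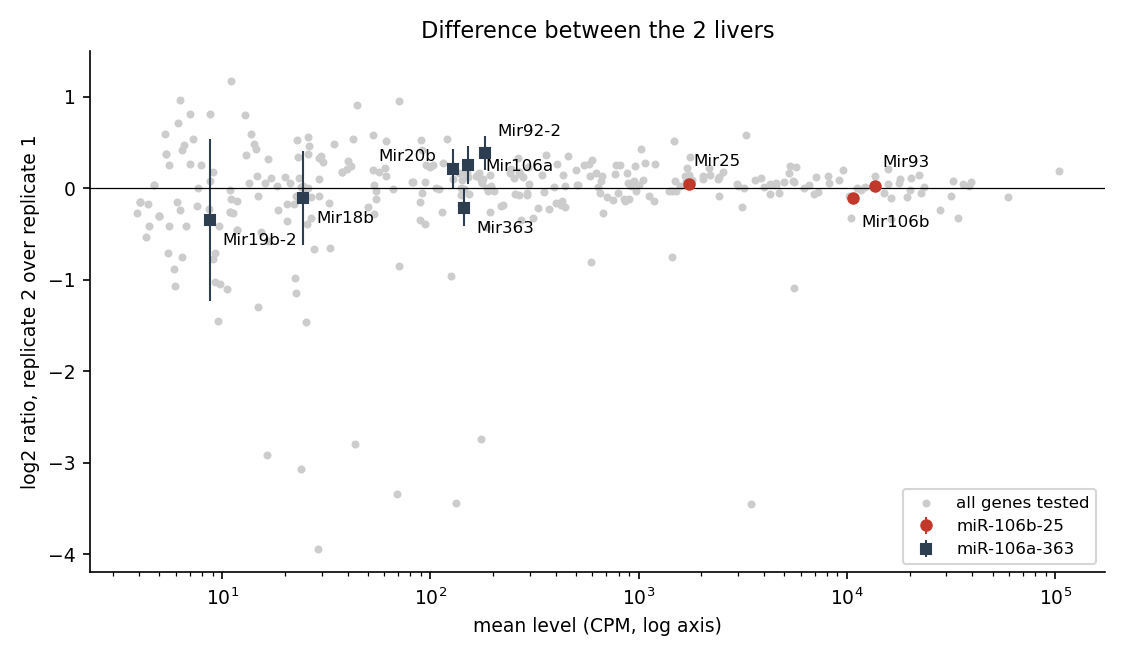
Log2 ratio of CPM in replicate 2 over replicate 1 (no pseudocount) against mean CPM (log axis) for the 332 genes tested (grey), the miR-106b-25 members (red circles) and the miR-106a-363 members (dark squares), with 95% exact intervals for the members. The members lie near 0 within the cloud of all genes, and the intervals widen toward Mir18b and Mir19b-2.

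The genes whose levels were most like those of each cluster's highest member were found by the distance of log2(CPM + 1) over the 2 libraries, leaving out the 3 clusters. Nearest to Mir93 were Mir30a (12992 and 14263 CPM, distance 0.08), Mir487b (12113 and 12192 CPM, 0.22) and Mir15a (15426 and 14847 CPM, 0.23). Nearest to Mir92-2 were Mir330 (161 and 181 CPM, distance 0.20), Mir770 (184 and 203 CPM, 0.21) and Mir500 (172 and 184 CPM, 0.21). With 2 libraries this likeness is mostly one of level.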

How the data were processed

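The authors deposited raw read counts for each microRNA gene. Per the labels the assembly is mm10, and deposited notes name annotation M4 and a separate alignment for each table. The aligner and counter were not given in the sources used here. Same-strand counts were used, without the rows that name no gene (63.2% and 61.2% of reads). IDs were matched to GENCODE M21 (1894 of 1973) and sequences to RefSeq GRCm38.p6 (all 9 members). The members and lists were chosen with earlier results of these data known. Named genes were the 9 members, 9 relatives, Mir122 and the 3 genes nearest to each cluster's highest member. Ratios between libraries and shares have 95% exact binomial intervals, and levels exact Poisson intervals. Tests used an exact binomial test (SciPy 1.17.1) with Benjamini-Hochberg adjustment, since 1 library per liver leaves edgeR's quasi-likelihood test no replicates. Alternatives were TMM (edgeR 4.0.16), DESeq2 1.42.0 size factors, other filters, pseudocounts and totals, counts regardless of strand, leaving out shared strands and each replicate. The steps were tested on simulated data. Opposite-strand counts at the members came to 2 in all.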

Additional observations from a re-analysis of the deposited data

How the results depend on the processing

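The miR-106b-25 cluster held 26034 CPM on average, 23451 CPM with counts regardless of strand and 29050.4 CPM with the highest gene left out of the total; for miR-106a-363 these were 643, 579 and 718 CPM. Leaving out each replicate gave 25791 to 26276 CPM and 609 to 677 CPM, cluster ratios of 38.1 to 43.1, and seed ratios of 79.2 to 95.1 (miR-17) and 5.17 to 5.45 (miR-25/92). Without members that share a mature strand the cluster ratio was 57.8 and the miR-25/92 ratio 12.1. Both rise because counts leave miR-106a-363 only, so this does not correct the undercount. Of the 9 members 4 differed between the livers, but 2 did by TMM, 2 by DESeq2 size factors and 2 with no filter. No direction reversed among the members' ratios under the alternatives tried, and no scaling moved the median log2 ratio of all genes by over 0.1. Low depth limits Mir18b and Mir19b-2, and shared strands limit Mir92-1, Mir92-2, Mir19b-1 and Mir19b-2 and the shares and ratios that use them. No paired analysis was possible because there is only 1 group.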
